A study of Mus musculus with 6 samples.

Results

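The genes described here encode the proteins of the mitochondrial ribosome. They were chosen by name, as every gene whose symbol in the array annotation reads Mrpl or Mrps followed by a number and, in a few, a letter. There were 77 such genes among the 19933 genes measured, 48 named Mrpl for the large subunit and 29 named Mrps for the small subunit. The mouse RefSeq gene table holds 78 symbols of this form, and all of the 77 matched it. The remaining one, Mrpl53, had only a probe set shared with another gene symbol and was not measured here.

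To examine what sets chemotherapy survivors apart, the study profiled 4T1 cells, a BALB/c mouse mammary carcinoma line, on expression arrays, with 3 arrays of untreated cells (WTR-) and 3 of the methotrexate-selected line MR13. Methotrexate (MTX), which starves cells of nucleotides by inhibiting folate metabolism, was survived by the cells that founded MR13. A dose of 13 µg/ml over at most 2 weeks is stated in the labels, whereas the study's text has another concentration, a longer exposure and a later return to medium without drug. Presence of MTX at the time of RNA extraction is not stated in the labels. MR13 is 1 selected line and the 3 arrays of each group came from triplicate wells, so that p values measure the spread between wells and not between independent selections. The labels name no transgene and no further treatment in either group.

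Mitochondria keep a small genome that encodes core subunits of the respiratory chain and of ATP synthase, and translate its messages on their own ribosome. The ribosomal RNAs of this particle are made in the mitochondrion, but all of its proteins are encoded in the nucleus, made in the cytosol and imported. The small subunit reads the message and the large subunit joins the amino acids. Some of the proteins have counterparts in bacterial ribosomes and the others were added in the mitochondrial lineage.

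Most mitochondrial ribosomal protein genes were lower in MR13 than in WTR- cells. Of the 77 genes, 53 fell, 1 rose (Mrpl38) and 23 did not pass the test, which was limma over all genes at an adjusted p under 0.05. Among all 19933 genes, 20.6% were called lower and 17% higher in MR13. The median difference of the 77 genes was -0.35 on the log2 scale, MR13 minus WTR-, or 1.28-fold lower in MR13, whereas the median over all genes was 0.01. The differences ran from -0.93 to 0.17, and 68 of the 77 were negative. The changes were widespread but small, and 13 of the genes fell by at least 1.5-fold with an adjusted p under 0.05, a call made for 6.36% of all genes.

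The mean of every member over the 6 arrays was at least 7.74, above the array medians, and bright genes were called more often in both directions. Among the 8495 genes at least as bright as the dimmest of the 77, 35.8% were called lower and 28.3% higher, and their median difference was -0.04. In 57 of the 77 genes, all 3 MR13 values lay below all 3 WTR- values, a pattern found in 25.2% of all genes and 42.2% of those 8495 bright genes. The reverse order held for 2 genes, Mrpl38 and Mrps2, and the groups overlapped in 18. Because the arrays measured RNA from whole cultures, less RNA of a gene in each cell and fewer cells expressing it cannot be told apart.

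**Figure D1:**
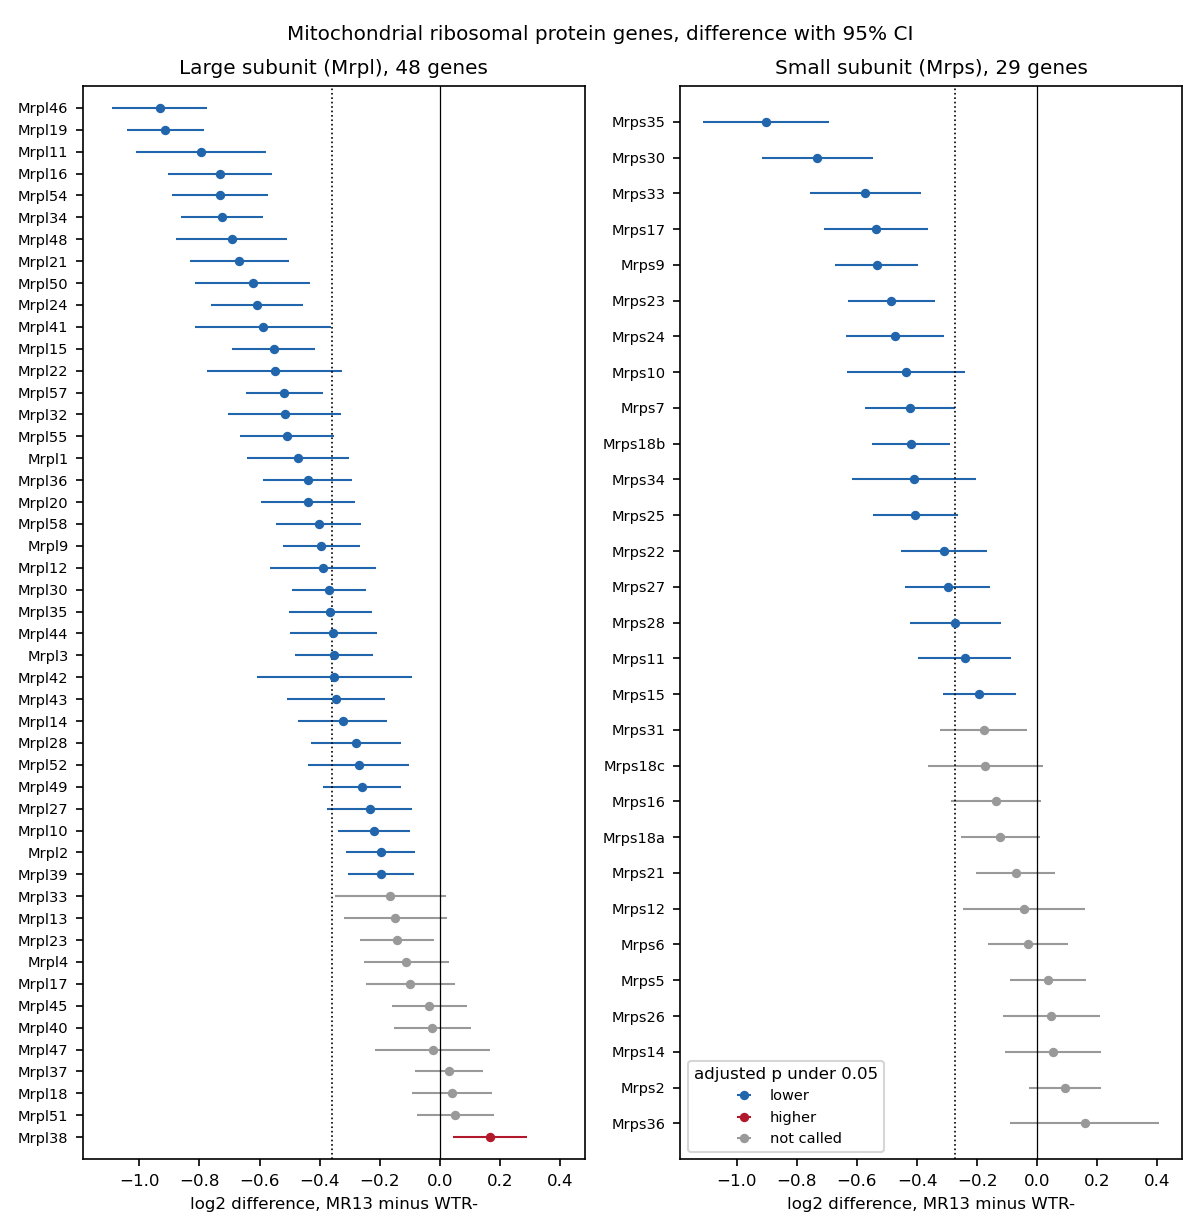
Log2 difference (MR13 minus WTR-) of each of the 48 Mrpl and 29 Mrps genes on the horizontal axis, with the 95% confidence interval from limma as a bar, sorted by size and coloured by the call at an adjusted p under 0.05. Dotted lines mark the median of each panel, -0.36 for Mrpl and -0.27 for Mrps, and Mrpl38 is the only gene called higher.

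In the large subunit, 36 of 48 genes fell, 1 rose and 11 did not pass the test, with a median difference of -0.36 and a middle range from -0.55 to -0.19 (25th to 75th percentile). The largest fall was that of Mrpl46, a protein of the central protuberance of the large subunit. Its log2 values were 9.59, 9.59 and 9.61 on the WTR- arrays and 8.57, 8.81 and 8.61 on the MR13 arrays, without overlap between groups. The difference was -0.93 (SE 0.07, adjusted p = 9.01e-06), or 1.91-fold. Mrpl19, counterpart of bacterial L19, read 10.34, 10.38 and 10.49 in WTR- and 9.48, 9.51 and 9.48 in MR13 cells. The 3 MR13 arrays were nearly equal for this gene, and the difference was -0.91 (SE 0.06, adjusted p = 2.78e-06).

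Some genes for proteins at functional sites of the large subunit were among those that fell, but genes at such sites were not counted as a set. Mrpl11, counterpart of the bacterial L11 protein at the base of the stalk that engages translation factors, had values of 10.26, 10.37 and 10.62 in WTR- and 9.51, 9.66 and 9.70 in MR13. Both groups were more widely spread than for Mrpl19 but did not overlap, and the difference was -0.80 (SE 0.09, adjusted p = 0.000162). The stalk protein gene Mrpl12 went from 10.52, 10.63 and 10.71 to 10.09, 10.33 and 10.27, a smaller difference of -0.39 (SE 0.08, adjusted p = 0.00331). Mrpl12 protein has also been reported to bind the mitochondrial RNA polymerase. Mrpl16, whose bacterial counterpart contacts transfer RNA near the catalytic site, read 10.32, 10.40 and 10.45 in WTR- and 9.50, 9.71 and 9.76 in MR13 (difference -0.73, SE 0.08, adjusted p = 6.79e-05). Mrpl3, counterpart of an early-assembling protein that reaches toward the catalytic centre, went from 10.52, 10.62 and 10.65 to 10.21, 10.23 and 10.29. Its difference of -0.35 (SE 0.06, adjusted p = 0.001) was close to the median of the 77 genes.

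Mrpl34 had the steadiest WTR- values of the named genes, 11.50, 11.51 and 11.51, against 10.67, 10.85 and 10.82 in MR13 (difference -0.73, SE 0.06, adjusted p = 1.71e-05). Mrpl54, which has no bacterial counterpart, read 10.45, 10.37 and 10.60 in WTR- and 9.67, 9.76 and 9.80 in MR13 (difference -0.73, SE 0.07, adjusted p = 4.51e-05). For Mrpl34 and Mrpl54 alike, the lowest WTR- value stood above the highest MR13 value by more than the range within either group. Mrpl41, reported to act also in growth arrest through p53, had values of 9.47, 9.50 and 9.83 in WTR- and 8.90, 9.03 and 9.09 in MR13 (difference -0.59, SE 0.10, adjusted p = 0.0013). Mrpl36, one of the smallest ribosomal proteins, went from 10.16, 10.18 and 10.27 to 9.65, 9.80 and 9.83 (difference -0.44, SE 0.07, adjusted p = 0.000602). Mrpl44, a relative of ribonuclease III whose mutation in people causes cardiomyopathy, went from 7.89, 8.06 and 8.0 to 7.58, 7.70 and 7.60 (difference -0.35, SE 0.06, adjusted p = 0.00187). It fell with no overlap between groups.

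Mrpl38, like Mrpl46 a protein of the central protuberance, was the only gene of the 77 called higher. It read 10.66, 10.64 and 10.60 in WTR- and 10.73, 10.84 and 10.82 in MR13, a difference of 0.17 (SE 0.05, adjusted p = 0.0373). The call did not withstand small changes in the data. It was lost when any 1 array other than MR13 1 was left out, with adjusted p from 0.0622 to 0.116. The difference stayed between 0.15 and 0.18 in the 5 fits in which the call was lost. The 11 large subunit genes that did not pass the test had differences between -0.17 (Mrpl33) and 0.05 (Mrpl51).

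In the small subunit, 17 of 29 genes fell, none rose and 12 did not pass the test. The median difference was -0.27, with a middle range from -0.44 to -0.07. The largest fall was that of Mrps35, a protein with no bacterial counterpart, which read 9.24, 9.40 and 9.58 in WTR- and 8.38, 8.56 and 8.57 in MR13 cells. The difference was -0.90 (SE 0.09, adjusted p = 6.31e-05). Mrps30 had values of 8.22, 8.30 and 8.41 in WTR- and 7.42, 7.61 and 7.70 in MR13 (difference -0.73, SE 0.08, adjusted p = 0.000104). Despite its name, the Mrps30 protein is part of the large subunit in structures of the mammalian mitochondrial ribosome. Apart from these 2 genes, none of the 29 named Mrps fell by 1.5-fold, against 11 of the 48 genes named Mrpl that did. Among all genes, 6.36% were called lower by at least 1.5-fold. The contrast between the subunits was not tested.

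Mrps33, which also has no bacterial counterpart, went from 10.17, 10.20 and 10.42 to 9.58, 9.73 and 9.77 (difference -0.57, SE 0.08, adjusted p = 0.000481). Mrps17, counterpart of bacterial S17, read 9.55, 9.69 and 9.78 in WTR- and 9.15, 9.03 and 9.23 in MR13 (difference -0.54, SE 0.08, adjusted p = 0.000461). Mrps9, counterpart of the S9 protein whose tail reaches the transfer RNA, had values of 8.77, 8.81 and 8.86 in WTR- and 8.31, 8.18 and 8.34 in MR13 (difference -0.53, SE 0.06, adjusted p = 0.000121). In all 3 genes the gap between the groups was wider than the spread within them. Mrps23 went from 10.33, 10.34 and 10.49 to 9.84, 9.95 and 9.91 (difference -0.49, SE 0.06, adjusted p = 0.000277). Mrps34, needed for stability of the small subunit, went from 9.01, 9.17 and 9.15 to 8.50, 8.80 and 8.81 (difference -0.41, SE 0.09, adjusted p = 0.00598). Mrps27, a pentatricopeptide repeat protein, a class that binds RNA, went from 8.88, 8.84 and 8.86 to 8.46, 8.66 and 8.55 (difference -0.30, SE 0.06, adjusted p = 0.00431). These values did not overlap between groups either.

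**Figure D2:**
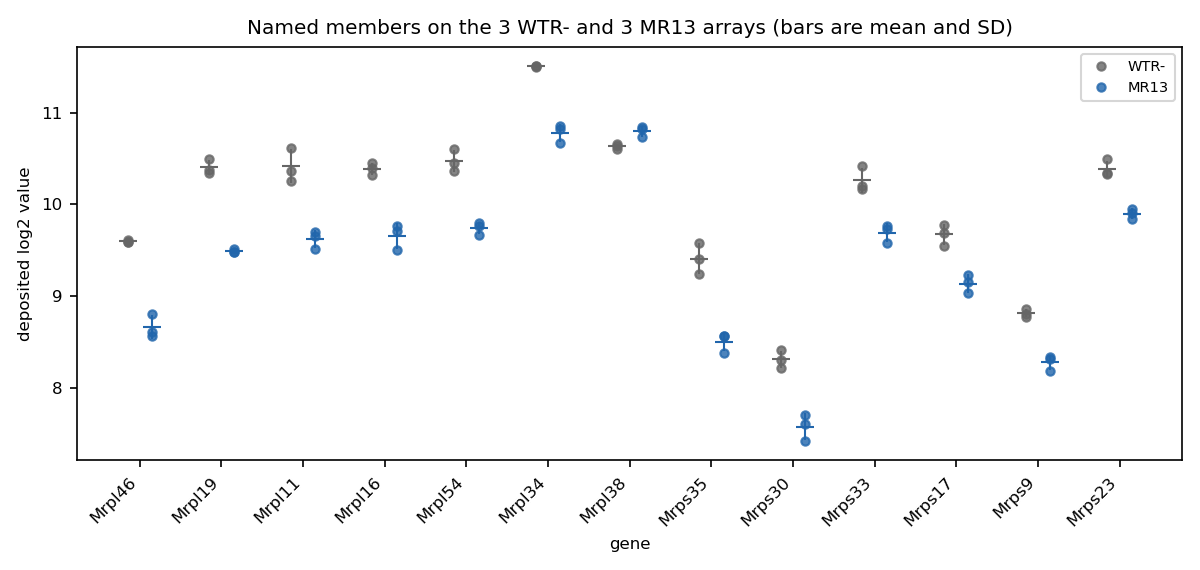
Log2 values on the 3 WTR- and 3 MR13 arrays for the members with the largest called differences in each subunit and for Mrpl38, with points for arrays and bars for mean and SD. The groups are apart for each gene, with MR13 below WTR- except for Mrpl38. Heights are not comparable between genes, since each has its own probes.

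The 3 genes related to bacterial S18 differed in their calls. Mrps18b fell, from 11.65, 11.72 and 11.72 to 11.22, 11.25 and 11.35 (difference -0.42, SE 0.06, adjusted p = 0.000335). Mrps18a read 10.59, 10.61 and 10.72 in WTR- and 10.47, 10.56 and 10.50 in MR13, and did not pass the test although the groups were apart (difference -0.12, SE 0.06, adjusted p = 0.134). Mrps18c read 10.02, 10.17 and 10.25 in WTR- and 9.90, 9.90 and 10.13 in MR13, with overlap (difference -0.17, SE 0.08, adjusted p = 0.151). The differences between these 3 genes were not tested. The Mrps18a protein, like that of Mrps30, sits in the large subunit.

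Mrps12, counterpart of the S12 protein at the decoding centre, did not pass the test. Its values were 7.89, 7.68 and 7.72 in WTR- and 7.59, 7.89 and 7.66 in MR13 (difference -0.04, 95% CI -0.25 to 0.16, adjusted p = 0.753). Mrps36, which has also been reported as a component of the 2-oxoglutarate dehydrogenase complex rather than of the ribosome, read 8.82, 8.90 and 9.08 in WTR- and 9.31, 8.89 and 9.07 in MR13. Its groups overlapped, with the MR13 array 1 highest (difference 0.16, 95% CI -0.09 to 0.41, adjusted p = 0.313). The other small subunit genes that did not pass the test, Mrps18a and Mrps18c aside, had differences between -0.18 (Mrps31) and 0.09 (Mrps2).

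Setting the subunits side by side, 75% of Mrpl and 58.6% of Mrps genes were called lower, with medians of -0.36 and -0.27. Of all genes 20.6%, and of bright genes 35.8%, were called lower. When genes were assigned by structure, with Mrps18a and Mrps30 counted in the large subunit and Mrps36 left out, 37 of 50 large subunit genes and 16 of 26 small subunit genes fell, with medians of -0.36 and -0.29. The middle ranges of the subunits overlapped broadly, and the difference between subunits was not tested, since genes are not replicates.

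The genes were also split by ancestry, with subunits taken from the symbols and Mrps36 left out. Among the genes named Mrpl, 22 of 29 genes with bacterial counterparts fell (median -0.37), as did 14 of 19 without (median -0.35). Among the genes named Mrps, 7 of 15 with direct bacterial counterparts fell (median -0.17), as did 10 of the 13 others (median -0.41). These 13 held Mrps18a and Mrps18b, relatives of S18, and Mrps30. They also held Mrps28 (difference -0.27, called lower), which other lists can place with the bacterial counterparts. Without Mrps18a and Mrps30, whose proteins sit in the large subunit, 9 of 11 fell and the median was again -0.41, and without Mrps18b as well, 8 of 10 fell with a median of -0.36. Both of these subsets were chosen after the values were seen. The small subunit genes with bacterial counterparts were the class with the lowest share called lower, 46.7%. The other classes had shares from 73.7% to 76.9%, beside 20.6% of all genes and 35.8% of bright genes. The class with the lowest share included Mrps2, Mrps5 and Mrps14, each with a positive difference that did not pass the test. These contrasts between classes were not tested.

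**Figure D3:**
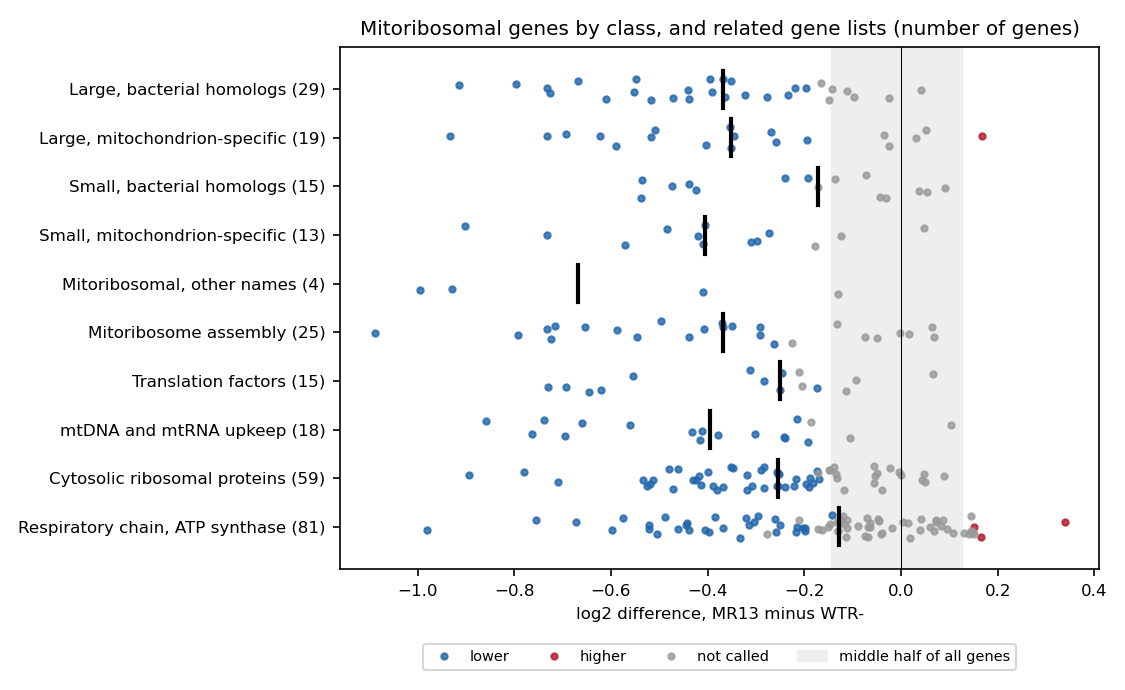
Log2 differences (MR13 minus WTR-) of the members in 4 classes and of related gene lists, with points for genes coloured by call, black bars for medians and a grey band for the middle 50% of all genes. Medians of the classes run from -0.17 for small subunit genes with bacterial counterparts to -0.41 for the other small subunit genes.

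The members were also summarized on each array. For every gene, the value on each array was set against the mean of that gene over the 6 arrays, and the median of these deviations was 0.103, 0.175 and 0.231 on WTR- arrays 1 to 3 and -0.245, -0.126 and -0.127 on MR13 arrays 1 to 3. The same medians over all genes lay between -0.023 and 0.025. Over the 8495 bright genes they lay between -0.051 and 0.03, and the lowest and highest were on MR13 array 1 and WTR- array 3. The member medians of all 3 MR13 arrays were thus below those of all 3 WTR- arrays, which restates the difference between groups. Not every member followed the median. On WTR- arrays 1 to 3, 14, 12 and 6 of the 77 genes lay below their own mean, and on MR13 arrays 1 to 3, 73, 68 and 58 did. The arrays within a group differed. MR13 array 1 held the lowest of the 6 values for 57 of the 77 genes, and WTR- array 3 the highest for 50. Without MR13 array 1, 49 genes were called lower, and the medians were -0.33 for Mrpl and -0.23 for Mrps. Without WTR- array 3, 49 were called lower as well, with medians of -0.35 and -0.22. Of the 53 genes, 48 were called lower with each array left out in turn, and the others were Mrpl27, Mrpl42, Mrpl52, Mrps11 and Mrps15.

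**Figure D4:**
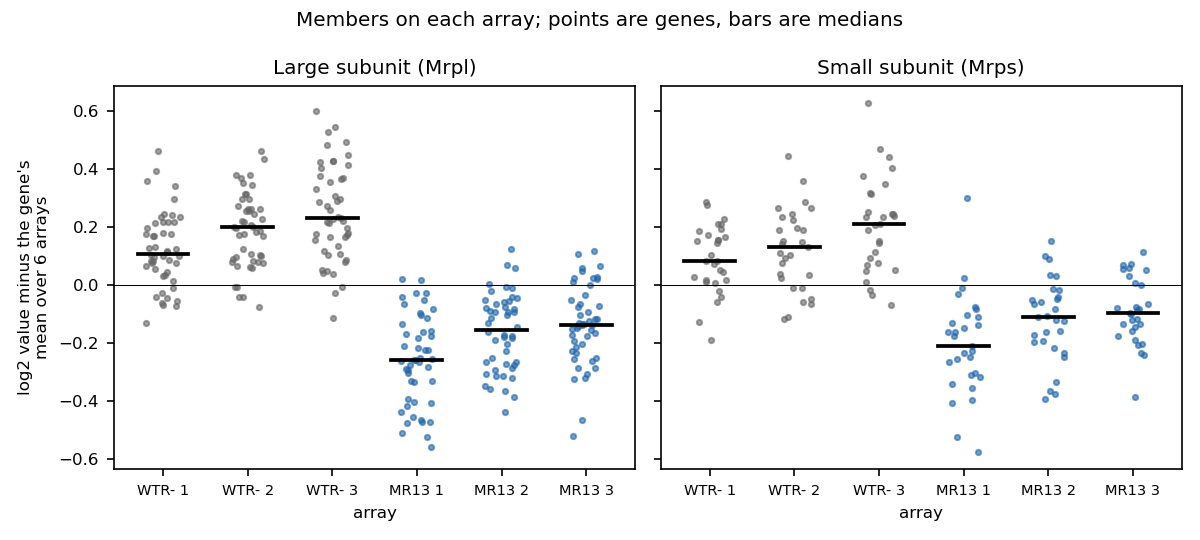
Each point is a member on one array, as its log2 value minus its mean over the 6 arrays, for Mrpl (left) and Mrps (right), and black bars are medians. The bars of all WTR- arrays lie above 0 and those of all MR13 arrays below 0, with MR13 array 1 lowest in both panels.

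The members are spread over the genome. They lay on 17 chromosomes in the RefSeq gene order, and their median difference was below 0 on 16 of these. The exception was chromosome 2 at 0.04, where 1 of 4 fell, beside 20.6% of all genes. The medians of all genes on these chromosomes lay between -0.0758 (chromosome 8) and 0.1026 (chromosome 15). For comparison, the 10 measured genes nearest on each side of each member were taken, or as many as the chromosome holds. The median differences of these neighbours had a median of -0.0035, and 69 of the 77 members lay below the median of their neighbours. Since 68 of the 77 differences were negative, that count largely restates the fall of the members. The neighbours of Mrpl34 had the lowest such median, -0.39, beside -0.73 for Mrpl34 itself.

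Mrpl46 and Mrps11 are divergent neighbours with 41 bases between their annotated starts, and a large and a small subunit gene thus share an upstream region. Mrpl46 fell by 0.93 on the log2 scale, whereas the fall of Mrps11 was 0.24 (SE 0.07, adjusted p = 0.0208) and was among those lost with some arrays left out. The difference between them was not tested. The stretch is shown because both genes start at its ends (RefSeq, GRCm38.p6).
Mrpl46 to Mrps11, chr7:78783090-78783130, + strand: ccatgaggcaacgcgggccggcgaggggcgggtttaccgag

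Promoters of the members were then described by short motifs. RefSeq windows of 300 bases, from 250 before to 50 after the start, were found for 68 of the 77 genes (74 windows), and searched on both strands. The ETS core CCGGAAG was in 33.8% of member windows and in 12.1% of the windows of all genes tested. The YY1 core AAGATGGC was in 16.2% and 3.18%, and the core of NRF1, a factor known for control of nuclear genes of mitochondria, written GCATGCGC, in 10.8% and 3.78%. The E box CACGTG (9.46% and 8.25%), the GC box GGGCGG (52.7% and 49.2%) and the cyclic AMP response element (CRE) TGACGTCA (2.7% and 2.37%) had similar shares in both. Within the members, the ETS core was in windows of 15 of 47 genes called lower and of 10 of 21 others. The NRF1 core was in 6 of 47 and 2 of 21, and the YY1 core in 9 of 47 and 3 of 21. The comparison windows were not limited to bright genes, and a gene with several windows counts more than once. The 7 member windows with an E box came from 3 of 47 genes called lower and 2 of 21 others. A match describes letters only, and no binding was measured.

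Stretches upstream of the start are printed for 4 large subunit genes that fell, to show where such motifs lie in promoters of genes with large and moderate falls (RefSeq, GRCm38.p6, 5′ to 3′ on the strand of the gene, trimmed to bases in no annotated gene). Only genes whose stretch held a marked motif were eligible, so the 4 do not show how often motifs go with falls. The windows of Mrpl46 and Mrpl11, which fell further, held no NRF1, ETS or YY1 core and no CRE. Capitals mark the CRE in Mrpl16, the ETS core in Mrpl34 and Mrpl3, and the NRF1 core in Mrpl32, where 4 matches include 1 overlapping pair on opposite strands. The E box and the GC box were not marked, and GC boxes stand in lower case in Mrpl32 and between Mrpl46 and Mrps11. Mrpl32, counterpart of bacterial L32, had a difference of -0.52 (SE 0.08, adjusted p = 0.000934).
Mrpl16, chr19:11770165-11770414, + strand: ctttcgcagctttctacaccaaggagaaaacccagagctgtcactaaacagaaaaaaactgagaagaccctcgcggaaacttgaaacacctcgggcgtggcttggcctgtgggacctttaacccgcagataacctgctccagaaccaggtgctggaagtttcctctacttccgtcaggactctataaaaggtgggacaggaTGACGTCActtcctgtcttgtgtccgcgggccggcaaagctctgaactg
Mrpl34, chr8:71464708-71464925, + strand: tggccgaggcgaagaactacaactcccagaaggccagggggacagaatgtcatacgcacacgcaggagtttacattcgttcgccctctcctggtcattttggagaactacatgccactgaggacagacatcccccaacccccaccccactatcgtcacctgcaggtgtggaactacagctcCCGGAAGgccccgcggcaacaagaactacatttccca
Mrpl3, chr9:105053018-105053267, + strand: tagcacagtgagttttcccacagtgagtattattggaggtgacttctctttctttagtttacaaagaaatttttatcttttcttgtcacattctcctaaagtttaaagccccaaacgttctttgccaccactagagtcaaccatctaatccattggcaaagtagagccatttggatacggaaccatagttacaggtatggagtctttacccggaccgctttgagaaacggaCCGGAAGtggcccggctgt
Mrpl32, chr13:14613038-14613241, - strand: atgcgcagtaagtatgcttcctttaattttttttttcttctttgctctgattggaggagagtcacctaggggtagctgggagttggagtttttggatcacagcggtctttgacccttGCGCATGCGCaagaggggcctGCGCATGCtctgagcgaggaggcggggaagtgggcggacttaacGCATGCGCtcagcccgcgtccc

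Genes that work with the mitochondrial ribosome were also mostly lower in MR13, where 20.6% of all genes and 35.8% of bright genes were called lower. Of 4 measured ribosomal protein genes with other names, 3 fell. They were Chchd1 of the small subunit (difference -0.99, SE 0.11), Gadd45gip1 of the large subunit (-0.93, SE 0.06) and Ptcd3 of the small subunit (-0.41, SE 0.07). Dap3, the remaining one, had a difference of -0.13 (adjusted p = 0.0717). Chchd1 read 10.26, 10.47 and 10.56 in WTR- and 9.29, 9.36 and 9.65 in MR13.

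Among genes for assembly of the particle, 17 of 25 fell and none rose, with a median of -0.37. The largest falls were those of Gtpbp10 (-1.09, SE 0.06), a GTPase of large subunit maturation, Noa1 (-0.79, SE 0.05), a GTPase needed for mitochondrial translation, and Fastkd2 (-0.73, SE 0.06), which binds mitochondrial ribosomal RNA. Of the mitochondrial translation factor genes, 10 of 15 fell and none rose (median -0.25), led by the elongation factor 4 homolog Guf1 (-0.73, SE 0.05), the initiation factor Mtif2 (-0.69, SE 0.06) and the elongation factor Tsfm (-0.65, SE 0.07). Genes that replicate mitochondrial DNA or make and process its RNA fell in 15 of 18 cases (median -0.40), with Tefm (-0.86, SE 0.08), Pnpt1 (-0.76, SE 0.05) and Ssbp1 (-0.74, SE 0.06) at the front. Tefm acts in transcript elongation, Pnpt1 in RNA decay and Ssbp1 binds single-stranded DNA. The shares called lower were 68% for assembly, 66.7% for translation factors and 83.3% for mitochondrial DNA and RNA genes. Beside these stand 20.6% of all genes and 35.8% of bright genes, and the contrasts were not tested. Each of these lists also held genes dimmer than the bright genes. All genes named here passed the test except Dap3.

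The products of the mitochondrial genome could be followed in only 2 genes. COX2 (difference -0.03, SE 0.10, adjusted p = 0.853) and ND3 (0.11, SE 0.08, adjusted p = 0.337) did not pass the test, and nuclear copies of mitochondrial DNA can share such probes. Among 81 nuclear genes for respiratory chain and ATP synthase subunits, 31 fell and 3 rose (median -0.13). Most of these subunits assemble with products of the mitochondrial ribosome, but the 4 of complex II (Sdha to Sdhd) do not, and without them, a subset chosen after the values were seen, 30 of 77 fell and 2 rose. Uqcr11 (-0.98, SE 0.14), Cox4i1 (-0.75, SE 0.07) and Ndufa9 (-0.67, SE 0.07) fell furthest, and the 3 that rose, named after their values were seen, were Ndufv3 (0.34), Sdha (0.17) and Ndufs3 (0.15). The share called lower was 38.3% in this list and 68.8% in the mitochondrial ribosomal protein genes, a contrast that was not tested. It was 20.6% among all genes and 35.8% among bright genes. However, the list of 81 also held genes dimmer than the bright genes, such as Cox7b2, Cox8b and Cox6b2, which were not called. The list is therefore not matched in brightness to the bright genes or to the members.

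The proteins of the cytosolic ribosome are encoded by a separate set of genes, and 40 of the 59 measured fell while none rose, with a median of -0.25. The share called lower was 67.8%, near the 68.8% of the mitochondrial ribosomal protein genes. It was 20.6% among all genes and 35.8% among bright genes, and these shares were not compared by a test. The list also held genes dimmer than the bright genes, such as Rpl39l and Rpl3l. Rps12 (-0.89, SE 0.06), Rpl12 (-0.78, SE 0.10) and Rpl13 (-0.71, SE 0.06) had the largest falls. Many of these genes have processed pseudogenes that can share probes, so their values are uncertain.

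Processed copies also touch a few members. Mrpl23, Mrpl27, Mrpl48 and Mrps36 have named pseudogenes, and 8 members had 2 probe sets, of which the brighter was used. For Mrpl41 (-0.59 and -0.40) and Mrps33 (-0.57 and -0.53), both probe sets were called lower. For Mrpl27 the probe set used was called (-0.23), whereas the other was not (-0.06, adjusted p = 0.481). For Mrpl51 the 2 probe sets had opposite signs (0.05 and -0.08) and neither was called. Which of a gene's probe sets lies in the gene itself was not given in the annotation used here, so the fall of Mrpl27 is uncertain.

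The label of the cells as mammary carcinoma was checked against epithelial markers. Krt8 read between 13.34 and 13.61 on all 6 arrays, and Krt18 between 12.74 and 13.00. Epcam went from between 10.98 and 11.02 in WTR- to between 6.66 and 6.80 in MR13, Cdh1 from between 11.02 and 11.10 to between 7.72 and 7.96, and Krt19 from between 10.60 and 10.73 to between 8.35 and 8.50. Of 5 epithelial markers, 4 were called lower, beside 20.6% of all genes. The difference of Krt18 was only -0.19. Krt8 was not called, with all 3 MR13 values above all 3 WTR- values (difference 0.125). The leukocyte, endothelial and fibroblast markers Ptprc, Cd3e, Pecam1, Cdh5, Col1a1 and Pdgfrb were not called. Of these, 6 of 6 overlapped between groups, as did 10489 of all 19933 genes. Their values lay below the array medians except for Col1a1, which read between 7.09 and 7.25. Absence of such cells was not tested. The fall of Epcam, Cdh1, Krt19 and Krt18 ran alongside the fall of the mitochondrial ribosomal protein genes, and its part in the result was not tested.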

How the data were processed

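Expression was measured on Affymetrix arrays from biotin-labelled total RNA, 3 arrays of WTR- and 3 of MR13 cells, grouped and numbered by their titles. Values were deposited on the log2 scale after normalization by the authors. The processing notes name affy and limma, with no versions, and the method of background correction and normalization is not given in the sources used here. This scale was read from the values, and array medians lay between 6.572 and 6.621. Whether background signal remains in the values is not known, and where it does, differences can be understated.

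Of 28350 probe sets, 21780 had 1 gene symbol in GEO's platform annotation, 1618 had several and 4952 were unnamed here. Each gene was represented by its brightest single-symbol probe set by mean value (19933 genes). MR13 was compared with WTR- by limma 3.58.1 in R 4.3.3 (lmFit and eBayes, two-sided, no covariate), with Benjamini-Hochberg adjustment over all genes. The script was tested on simulated data. Figures were drawn with matplotlib 3.10.9 in Python 3.11.15.

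The members and all lists were chosen with earlier results of these data known, so members are given by counts, medians and single-gene tests over all genes. Named members were the 6 with the largest called rise and the 6 with the largest called fall in each subunit among genes whose groups did not overlap, or fewer, and 14 chosen for their role. Of each related list, the 3 largest called differences were named. Other members were named after their values were seen. Alternatives were quantile normalization again, median centring, a filter on the dimmest 30% of genes, the mean of probe sets, a trended robust prior, a replicate block, a plain t-test (the methods' t-test), a 1.5-fold minimum, subunits by structure, and leaving out each array. There were 0 columns of other series. Precision is limited by the number of arrays.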

Additional observations from a re-analysis of the deposited data

How the results depend on the processing

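The number of mitochondrial ribosomal protein genes called lower, 53 as reported, was 49 to 53 with single arrays left out and 51 to 55 under the other limma alternatives without a fold minimum. With a minimum of 1.5-fold it was 13, and none was called higher. The methods' t-test called 47 lower after Benjamini-Hochberg adjustment. Of the 53 genes, 48 were called lower under every limma alternative without a fold minimum. The single call higher, that of Mrpl38, was absent (0 genes) under the replicate block, where its adjusted p was 0.0643, and the count was 0 to 1 when arrays were left out. The median of the large subunit lay between -0.39 and -0.33 when arrays were left out, and that of the small subunit between -0.31 and -0.22. The small subunit median moved to -0.20 under quantile normalization, when that of the large subunit was -0.33. The cause of these changes was not tested, except that a fold minimum removes small differences by construction. Over all genes, 7497 were called as reported, 6716 to 6971 with an array left out and 6524 by the methods' t-test. Across 325 combinations of a named gene and a setting, 314 kept their direction and call, 7 lost the call and 1 gained it. The other 3 were of Mrps12, not called under any setting, whose difference of -0.04 changed sign to 0.03 under quantile normalization and to 0.02 without WTR- array 1 or without MR13 array 1. Mrpl38 accounted for 6 of those lost, and Mrps34 for the other (methods' t-test, adjusted p = 0.0642). Mrps18c gained a call without MR13 array 3 (adjusted p = 0.0458).

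The replicate numbers were not taken to pair the arrays. Deviations from the group means of arrays with the same number correlated across genes at 0.128, -0.001 and 0.182, so not every pair was above 0.1. Arrays with unlike numbers correlated at -0.197 to 0.053, so the values for numbers 1 and 3 were the highest. Whether arrays with the same number share an effect was not tested. With the replicate block, 53 members were called lower and 0 higher, and 7442 genes were called in all.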
